A study of Chlamydomonas reinhardtii with 15 samples.

Results

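The transcript response of the green alga Chlamydomonas reinhardtii to 2 reactive electrophiles was compared with its response to 2 oxidants, by setting the 6 arrays of the electrophiles against the 6 arrays of the oxidants among the 15 arrays of the series. The electrophiles were DBMIB, at 2 µM, and 2(E)-Hexenal, at 0.3 mM. DBMIB is a quinone that stops electrons from passing through the cytochrome b6f complex of photosynthesis, and Hexenal is an unsaturated aldehyde of the kind that plants release on wounding. The oxidants were NR (neutral red), at 3 µM, and tBOOH (tert-butylhydroperoxide), at 100 µM. NR is a photosensitising dye, which yields singlet oxygen when lit, and tBOOH is an organic hydroperoxide. All cultures were wild type 4A+ in the 137c background, kept mixotrophically in acetate medium in light, and RNA was taken 2 h after a chemical, or none in the control, was added. Each chemical and the control had 3 arrays, which the labels describe as independent biological replicates, grown before treatment in cultures that were split into subcultures. Each chemical was used at 1 dose, and the doses differed, so the classes were not matched for dose or for strength of stress.

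Reactive electrophiles carry electron-poor carbons that bond to the thiols of cysteine and glutathione, and cells answer them with detoxifying enzymes such as glutathione S-transferases. Singlet oxygen and peroxides instead oxidise lipids, proteins and pigments, and the lipid fragments that form are themselves electrophiles. The comparison therefore asks which transcripts set a direct electrophile load apart from an oxidant load. It rests on 4 chemicals: the tests below use the spread between arrays of 1 chemical, so they speak for these chemicals and doses, and not for other members of either class. In RNA from whole cultures, fewer responding cells and less RNA per cell cannot be told apart.

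Tests covered 16283 probes, each listed under 1 transcript model. Of these, 15243 are classed as specific and 1040 as cross-hybridising, so that other transcripts may add to their signal. Values are deposited log2 signals, equalised between arrays, so a difference of 1 is 2-fold. Transcripts are named by locus tags of the v5.5 annotation, which could be tied to 42.6% of probes. The tables used here pair no tag with a gene symbol, so no gene function is given, and the first digits of a tag are its chromosome. On the treated arrays 72.7% to 89.8% of probes were well above background by the scanner's own flag, and 0 spots were saturated. The lowest share was that of DBMIB replicate 2.

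The electrophiles and the oxidants differed widely, and a core of transcripts separated both electrophiles from both oxidants. In the pooled contrast of averaged group means 53.9% of probes were called: 4062 probes were higher under the electrophiles (24.9% of those tested) and 4716 were lower (29%), at an adjusted p under 0.05 in limma's moderated test with Benjamini-Hochberg adjustment. Of these 8778 probes, 2143 were also called in the same direction in each of the 4 comparisons of 1 electrophile with 1 oxidant. These are called kept below. The comparisons themselves called 56.1% of all probes for DBMIB with NR (27% higher, 29.1% lower) and 49.5% for DBMIB with tBOOH (23% higher, 26.4% lower). They called 43.3% for Hexenal with NR (21.1% higher, 22.2% lower) and 45.5% for Hexenal with tBOOH (22.6% higher, 22.9% lower). Kept probes make up 13.2% of all probes, with 1154 higher (7.09%) and 989 lower (6.07%) under the electrophiles. A kept probe with at least a 2-fold difference in each of the 4 comparisons was found 629 times in the higher direction (3.86%) and 426 times in the lower direction (2.62%), together 6.48% of all probes. Without a test, the 6 electrophile and the 6 oxidant arrays did not overlap in 16.6% of probes, with 8.5% higher and 8.09% lower under the electrophiles.

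The remaining pooled calls rested on part of the comparisons. Only 2 of the 4 comparisons were called in the pooled direction for 3945 probes, and 3 of 4 for 2114. For 3160 pooled calls the 4 comparisons did not all point the same way. A pooled difference can thus come from 1 chemical, as in CHLRE_12g546550v5, which was 74.1-fold lower under the electrophiles on average. Its signal was 15.50 to 16.37 on the tBOOH arrays but 5.05 to 6.11 on the NR arrays, against 3.39 to 5.86 on the electrophile arrays, of which 3 of 6 were well above background. CHLRE_07g318850v5 was 59.3-fold higher on average, at 15.07 to 15.25 under DBMIB and 7.67 to 9.93 under Hexenal, and the NR arrays, at 5.05 to 9.40, overlapped the Hexenal arrays. Neither locus was kept.

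**Figure D1:**
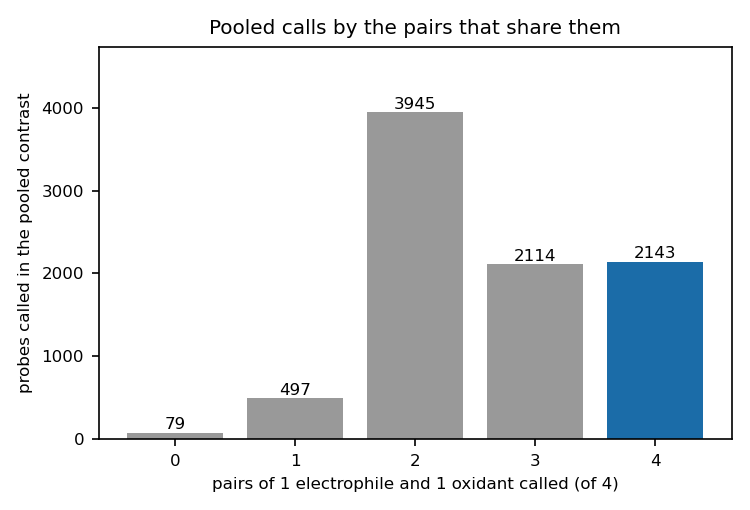
Bars give the number of probes called in the pooled contrast (vertical axis) by how many of the 4 comparisons of 1 electrophile with 1 oxidant were called in the same direction (horizontal axis). The kept probes are the 2143 at 4 of 4, and the most frequent class is 2 of 4, with 3945 probes.

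Class membership accounted for 48.9% of the sum of squares among the means of the 4 chemicals over all probes. The difference between DBMIB and Hexenal took up 22.6% and that between NR and tBOOH 28.6%. Median correlations of array profiles showed the same order, as a description across probes, which are not independent. Arrays of 1 chemical correlated at a median Pearson r of 0.989, arrays of DBMIB with Hexenal at 0.951, arrays of NR with tBOOH at 0.943, and arrays of different classes at 0.925. The ranges overlapped, with 0.934 to 0.949 for NR with tBOOH and 0.896 to 0.945 for different classes. NR and tBOOH were called different in 48.3% of probes, more than Hexenal with NR (43.3%) or with tBOOH (45.5%).

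The higher set was larger at every fold limit examined, and its differences reached further. At 4-fold in each of the 4 comparisons it held 187 probes against 61 lower ones, at 8-fold 55 against 4, and at 16-fold 21 against 0. The median pooled difference was 2.36 over the 629 higher probes and -2.08 over the 426 lower ones, beside -0.01 over all probes tested. Probe GT_Chlamydomonas_specific_010773 was just inside the 2-fold limit, with a smallest difference of exactly 2-fold, and GT_Chlamydomonas_Xhyb_0000865 just outside it, at 1.999-fold.

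This balance depended on the scaling of the arrays. The 6 spike-in features, which read RNA added to each sample in known amount, averaged 8.35 to 8.79 on the electrophile arrays, 7.90 to 8.42 on the oxidant arrays and 7.49 to 8.15 on the control arrays. Centred on them, the median pooled difference of all probes moved to -0.36. The share of pooled calls in the higher direction was then 23.3%, where the deposited values gave 46.3%. Of probes kept at 2-fold with this centring, 404 were higher and 834 lower. Of the 629 higher probes, 535 were still kept in the higher direction with that centring, as were all 426 lower ones in theirs, and none of the 1055 changed sign. The centring shifts all probes of an array alike, here lowering the electrophiles against the oxidants by less than 2-fold. The sign of these 1055 therefore could not change, and the lower ones could only move further down. With the scanner signals centred on the 75th percentile 577 were higher and 509 lower, and with normexp background correction and quantile normalization 315 and 152. For the 2-fold sets spike-in centring alone turned the balance among these scalings, while for kept probes of any size the 75th percentile did so too, with 1036 higher and 1138 lower.

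**Figure D2:**
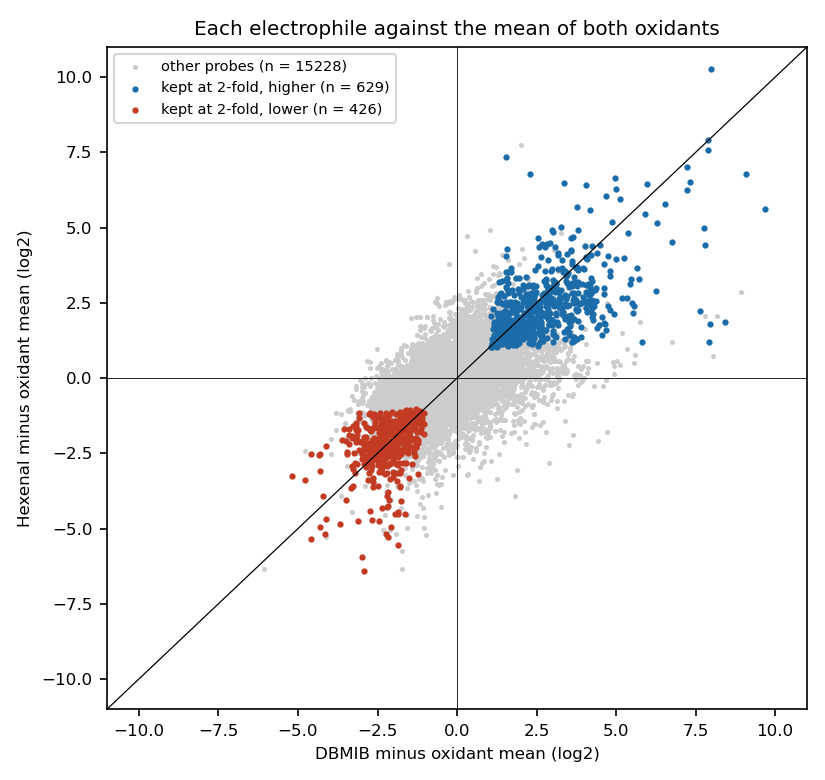
Each point is a probe, placed by its log2 difference between DBMIB and the mean of both oxidants (horizontal axis) and between Hexenal and the same mean (vertical axis), with the line of equality. The 629 higher and 426 lower probes kept at 2-fold are coloured, and the higher ones spread further from the origin.

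The 24 named loci were chosen among kept loci with a tag whose electrophile and oxidant arrays did not overlap, so their lack of overlap is no result. Among these, CHLRE_12g556228v5 had the largest smallest-of-4 difference in the higher direction. Its signal was 13.70, 13.52 and 13.50 on the DBMIB arrays and 13.47, 13.63 and 13.71 on the Hexenal arrays. It was 5.63, 5.37 and 5.47 under NR and 5.98, 5.70 and 5.97 under tBOOH. The electrophile arrays lay within 0.24 of each other and far above every oxidant array, a pooled difference of 7.90 (SE 0.117, adjusted p = 3.69e-15 in limma's test), or 239-fold. The smallest of the 4 comparisons was 207-fold and the largest 277-fold. DBMIB and Hexenal were not called different here (difference -0.03, adjusted p = 0.913), and control arrays, at 4.32 to 4.84, lay below both classes.

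CHLRE_17g733350v5 had the second widest gap. DBMIB arrays gave 9.98, 9.61 and 9.59 and Hexenal arrays 9.10, 9.79 and 9.67. NR arrays gave 3.19, 2.57 and 3.32, with 1 of 3 well above background, and tBOOH arrays 1.37, 2.85 and 1.68, with none well above background. The groups did not overlap, and the electrophile level was nominally at least 102-fold the oxidant level (adjusted p = 2.59e-11 in limma's test). For such a fold, each array of the dimmer class enters with its measured value or with the lowest signal that passed the background flag on that array, whichever is larger. It is nominal because that lowest signal is an extreme of its array.

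CHLRE_16g658850v5 was measured well above background on all 12 treated arrays. Its signal was 13.91, 14.34 and 14.19 under DBMIB, 13.21, 14.07 and 13.85 under Hexenal, 7.45, 8.26 and 7.89 under NR, and 8.36, 8.80 and 8.72 under tBOOH. All electrophile arrays exceeded all oxidant arrays, by 5.68 in the pooled contrast (SE 0.171, adjusted p = 6.63e-12 in limma's test), or 51.3-fold. Both oxidants also raised it over control, by 1.05 and 1.81, but the electrophiles raised it by 7.33 and 6.89.

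CHLRE_10g456100v5 was the brightest of the named loci. It reached 17.03, 17.06 and 16.51 under DBMIB and 17.65, 17.85 and 17.62 under Hexenal, against 10.96, 10.53 and 10.69 under NR and 12.53, 12.70 and 13.07 under tBOOH. The pooled difference was 5.54 (SE 0.152, adjusted p = 2.50e-12 in limma's test), 46.5-fold. The oxidants differed between themselves, since NR lowered the locus against control (change -1.24, adjusted p = 0.000284 in limma's test) and tBOOH raised it (0.80, adjusted p = 0.00498).

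CHLRE_16g667950v5 showed the same split of the oxidants. It stood at 11.74 to 11.91 under DBMIB, 10.26 to 11.39 under Hexenal and 6.64 to 6.84 under tBOOH, and none of its NR arrays passed the background flag. Its class difference was nominally at least 103-fold. Against tBOOH alone, where both sides were measured, the difference was 17.6-fold for Hexenal, the smallest of its 4 comparisons.

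The other 7 of the 12 higher loci stayed below a signal of 10 on every array. CHLRE_02g082250v5 was 19.4-fold higher with a probe that the array's makers class as cross-hybridising, so that transcripts of like sequence may add to it, at 8.75 to 9.22 on the electrophile arrays and 4.35 to 5.16 on the oxidant arrays. The rest had at least 1 oxidant with no array well above background. CHLRE_12g501950v5 was nominally at least 36.8-fold higher, CHLRE_07g353600v5 44.6-fold, CHLRE_17g700950v5 23.1-fold, CHLRE_03g152701v5 13.4-fold, CHLRE_12g543302v5 12.9-fold and CHLRE_17g739000v5 12.1-fold. Adjusted p-values from limma over these 7 lay between 3.36e-12 and 1.23e-08.

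All 12 of these loci were higher than control under both electrophiles. Under the oxidants 2 were higher than control in both, 3 lower in both and 4 called in neither, where all probes gave 16.6%, 15.7% and 29.7%, and 3 followed other patterns. DBMIB and Hexenal differed from each other in 7 of the 12, beside 39.3% of all probes. The loci were chosen by the class difference, so nothing is read from these counts. The widest such difference was in CHLRE_07g353600v5, at 9.66 to 9.82 under DBMIB and 5.18 to 7.18 under Hexenal. The sizes depended on the background correction. With normexp the pooled log2 differences were 6.24 in CHLRE_12g556228v5, 3.13 in CHLRE_17g733350v5, 4.16 in CHLRE_16g667950v5, 2.25 in CHLRE_12g501950v5, 2.11 in CHLRE_07g353600v5 and 1.54 in CHLRE_17g700950v5. They were 2.19 in CHLRE_02g082250v5, 0.94 in CHLRE_03g152701v5, 0.91 in CHLRE_17g739000v5 and 0.86 in CHLRE_12g543302v5. The nominal minima given above are therefore minima on the deposited scale and not under normexp, where every pooled call of these loci held.

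**Figure D3:**
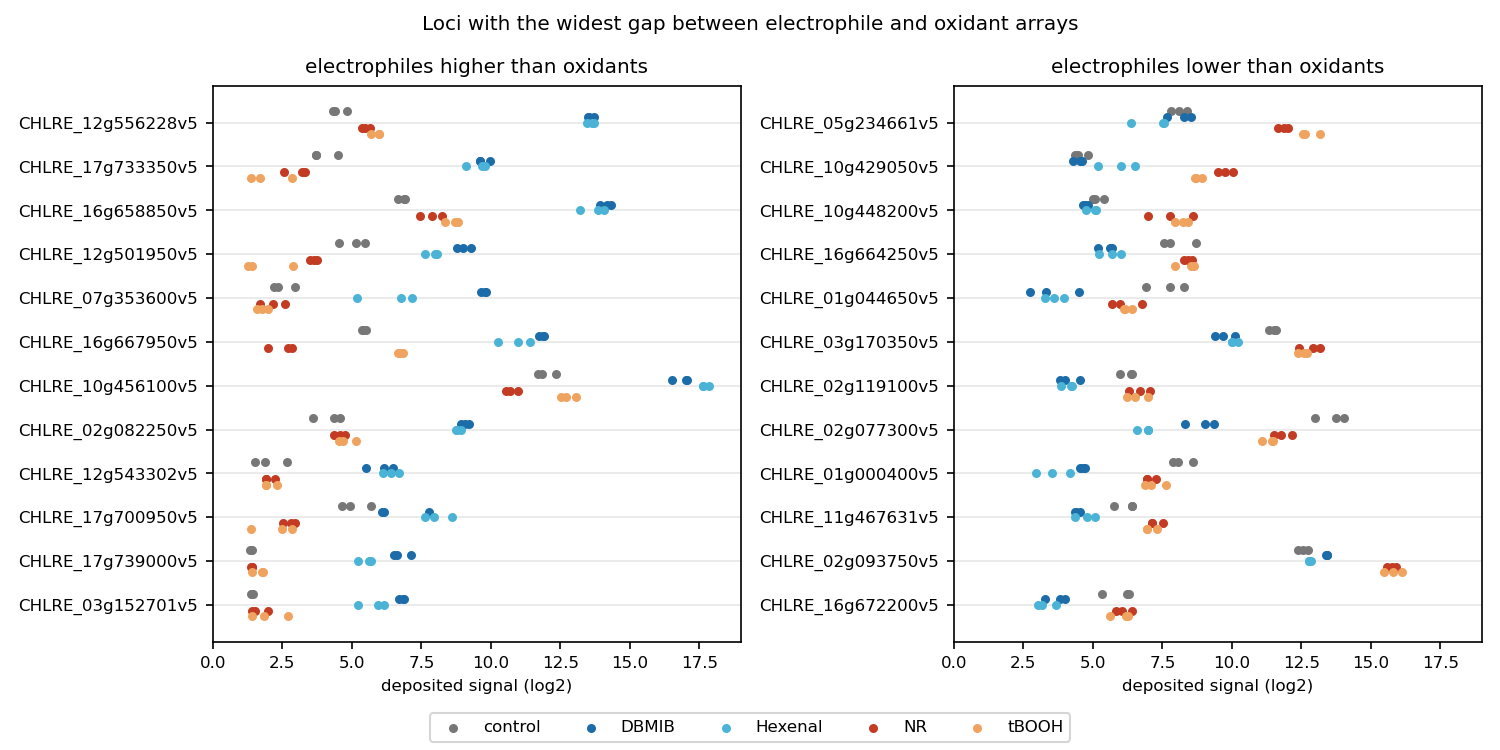
Points are single arrays, 3 per group, with the deposited log2 signal on the horizontal axis and a locus per row, ordered by the smallest of the 4 comparisons. In the left panel the DBMIB and Hexenal arrays lie to the right of every NR and tBOOH array, and in the right panel to the left. The absence of overlap in the 24 rows was a condition for choosing these loci.

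In the lower direction CHLRE_05g234661v5 had the widest gap. DBMIB arrays gave 7.66, 8.27 and 8.54 and Hexenal arrays 6.35, 7.54 and 7.56, whereas NR arrays gave 11.87, 11.65 and 12.02 and tBOOH arrays 12.64, 12.56 and 13.16. The electrophile arrays were close to the control arrays, at 7.82 to 8.39, and the oxidant arrays lay far above both. The pooled difference was -4.66 (SE 0.221, adjusted p = 4.72e-10 in limma's test), so the signal was 25.3-fold higher under the oxidants. Against control, NR and tBOOH raised it by 3.74 and 4.68, DBMIB left it at a difference of 0.05 that was not called, and under Hexenal it changed by -0.95 (adjusted p = 0.0166).

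CHLRE_10g429050v5 was 17-fold higher under the oxidants, at 9.50, 10.05 and 9.75 under NR and 8.70, 8.69 and 8.93 under tBOOH. It stood at 4.62, 4.28 and 4.54 under DBMIB, with 2 of 3 arrays well above background, and at 5.18, 6.50 and 6.00 under Hexenal (adjusted p = 3.92e-10 in limma's test). Hexenal raised it by 1.34 over control, less than NR (5.21) or tBOOH (4.22).

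CHLRE_10g448200v5 followed, 8.82-fold higher under the oxidants (adjusted p = 1.45e-08 in limma's test). Its oxidant arrays spread from 6.999 to 8.62 and its electrophile arrays from 4.66 to 5.13, close to control at 4.99 to 5.41. Neither electrophile was called against control.

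CHLRE_02g093750v5 was an abundant transcript that both oxidants raised further than DBMIB did. It stood at 15.59, 15.75 and 15.89 under NR and 15.81, 15.49 and 16.13 under tBOOH, but at 13.38 to 13.44 under DBMIB and 12.77 to 12.86 under Hexenal. The oxidants raised it over control by 3.18 and 3.25, DBMIB raised it by 0.85 (adjusted p = 0.000449), and Hexenal was not called (0.24, adjusted p = 0.243), while the class difference was 6.35-fold (adjusted p = 2.88e-10 in limma's test).

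In other loci the electrophiles lowered a transcript that the oxidants changed less. CHLRE_02g077300v5 had the highest control level of the lower loci, at 12.98, 14.03 and 13.76. It read 12.17, 11.52 and 11.75 under NR, 11.09, 11.44 and 11.47 under tBOOH, 9.34, 8.33 and 9.03 under DBMIB and 6.57, 6.98 and 6.98 under Hexenal. All 4 chemicals lowered it, and the electrophile arrays lay below all others, 13-fold under the oxidants (adjusted p = 2.37e-09 in limma's test).

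CHLRE_16g664250v5 fell under both electrophiles and was called under neither oxidant. Its signal was 5.17 to 5.70 under DBMIB and 5.23 to 6.00 under Hexenal, whereas NR and tBOOH arrays, at 7.97 to 8.64, covered a range like that of control, at 7.56 to 8.71. The changes against control were -2.52 and -2.37 under DBMIB and Hexenal, and 0.40 and 0.37, not called, under NR and tBOOH. The class difference was 7.09-fold (adjusted p = 2.86e-08 in limma's test).

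The remaining 6 of the 12 lower loci were CHLRE_01g044650v5, CHLRE_03g170350v5, CHLRE_02g119100v5, CHLRE_01g000400v5, CHLRE_11g467631v5 and CHLRE_16g672200v5. The last was nominally at least 5.64-fold lower under the electrophiles, with 0 of 3 Hexenal arrays past the background flag, and the other 5 were 5.73-fold to 8.22-fold lower. In CHLRE_01g044650v5 and CHLRE_01g000400v5 only 1 of 3 Hexenal arrays passed the flag, and with the same floor their 6.14-fold and 8.22-fold became nominal minima of 5.14-fold and 7.89-fold. Of the 12 lower loci, 8 were lower than control under both electrophiles and 6 higher than control under both oxidants, where all probes gave 21% and 16.6%. Both held for 2 loci, beside 0.16% of all probes. These loci too were chosen by the class difference, so nothing is read from these counts.

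Normexp also shrank the lower loci. The pooled log2 difference was then -4.04 in CHLRE_05g234661v5, -2.36 in CHLRE_10g429050v5, -1.52 in CHLRE_10g448200v5, -1.59 in CHLRE_16g664250v5 and -3.03 in CHLRE_02g077300v5. It was -1.09 in CHLRE_01g000400v5, -1.001 in CHLRE_11g467631v5, -0.83 in CHLRE_02g119100v5, -0.69 in CHLRE_01g044650v5 and -0.67 in CHLRE_16g672200v5.

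Setting the kept probes against control showed where their differences lay on the deposited scale. These counts share the treated arrays with the pooled contrast, and all 4 chemicals share the 3 control arrays. In the higher set of 629 probes, 514 (81.7%) were higher than control under both electrophiles, beside 23% of all probes. Under both oxidants 197 (31.3%) were lower than control, beside 15.7% of all probes, 100 (15.9%) were higher, beside 16.6%, and 151 (24%) were called in neither, beside 29.7%. The median change against control was 2.23 under DBMIB and 1.92 under Hexenal, but -0.17 under both NR and tBOOH. Per chemical, the share of all probes called against control was 61.9% for DBMIB, 57.3% for Hexenal, 45% for NR and 60.1% for tBOOH. By direction these were 31.5% higher and 30.4% lower for DBMIB, 31.6% and 25.7% for Hexenal, 23.7% and 21.3% for NR, and 31.9% and 28.2% for tBOOH.

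On the deposited scale the lower set leaned on the electrophiles too. Of its 426 probes, 319 (74.9%) were lower than control under both electrophiles, beside 21% of all probes, and 125 (29.3%) were higher under both oxidants, beside 16.6%. The median change was -2.03 under DBMIB, -1.77 under Hexenal, 0.03 under NR and 0.37 under tBOOH. In 39 probes (9.15%) neither electrophile was called while both oxidants were higher, as in CHLRE_10g448200v5. The choice of the sets by the electrophile and oxidant values fixes part of these shares. They also depend on the scaling. With spike-in centring 384 of the 629 higher probes were higher than control under both electrophiles, and 207 were lower under both oxidants. Of the 426 lower probes, 354 were then lower under both electrophiles and 94 higher under both oxidants.

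In 113 probes kept at 2-fold the classes moved in opposite directions from control. Both electrophiles raised and both oxidants lowered 89 probes, and the reverse held for 24, beside 91 (0.559%) and 26 (0.16%) of all probes. With spike-in centring these numbers became 36 and 26, so the first depends on the scaling. CHLRE_16g659300v5 had the largest smallest change against control among tagged loci of the first group, and was chosen after its values were seen. Its signal was 5.07, 4.98 and 5.68 in control, 6.76, 7.16 and 7.29 under DBMIB and 6.95, 7.07 and 6.75 under Hexenal. It fell to 4.31, 3.45 and 3.16 under NR and to 2.54, 2.49 and 1.90 under tBOOH, where no array was well above background. The control arrays lay between the classes and overlapped neither.

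CHLRE_03g170350v5 held that place in the reverse group. Control arrays stood at 11.52, 11.58 and 11.35. The oxidants raised it to 12.43, 13.17 and 12.93 under NR and to 12.69, 12.59 and 12.37 under tBOOH. The electrophiles lowered it to 9.39, 9.67 and 10.13 under DBMIB and to 9.99, 10.01 and 10.23 under Hexenal. Adjusted p-values of the 4 changes lay between 4.35e-06 and 0.000506 in limma's test.

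**Figure D4:**
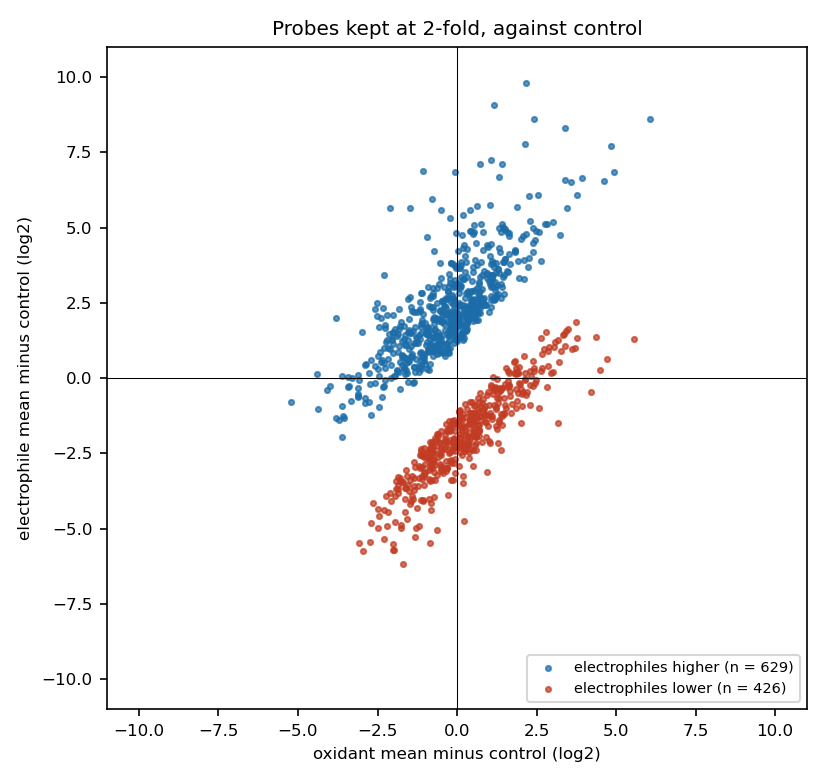
Each point is 1 of the 1055 probes kept at 2-fold, placed by the log2 change of the oxidant mean (horizontal axis) and of the electrophile mean (vertical axis) against control. Higher probes lie mainly above the horizontal zero line and lower probes mainly below it, while both sets spread to either side of the vertical zero line.

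Chemicals of a class also differed within the kept probes, less often than over all probes except for DBMIB and Hexenal in the higher set. DBMIB and Hexenal were called different in 46.6% of the 629 higher probes, with 202 higher under DBMIB and 91 under Hexenal, beside 39.3% of all probes (17.7% higher and 21.6% lower under DBMIB). In the 426 lower probes this share was 33.1%. NR and tBOOH differed in 42.3% and 39% of the sets, beside 48.3% of all probes (23.7% higher and 24.6% lower under NR). The median size of the difference between DBMIB and Hexenal was 0.57 in the higher set and 0.44 in the lower set, beside 0.46 over all probes.

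Fewer probes of the lower set were measured throughout. Of the 629 higher probes, 77.1% were well above background on all 12 treated arrays, and of the 426 lower probes 61.5%, beside 69.3% of all probes. In 48 higher probes no oxidant array was well above background, and in 47 lower probes no electrophile array was. For these the fitted size rests partly on signals that did not pass the background flag, so the size was not measured.

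Some kept transcripts came from neighbouring loci. Of the 242 measured neighbours of tagged loci in the higher set, 28 (11.6%) were themselves in it, beside 3.87% of all 6821 loci that could be placed. In the lower set 8 of 181 neighbours (4.42%) were, beside 2.80% of loci. Each adjacent pair within a set is counted from both sides, so the 28 and the 8 are not independent, and the 8 rest on few pairs. Neighbours were read from the order of loci in the v5.5 annotation, a later build than that of the array, so some may be parts of 1 gene or share reads of a probe, which was not tested.

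The longest run in the higher set was 4 successive loci on chromosome 10, described here after its values were seen. CHLRE_10g456000v5 stood at 15.86 to 16.15 under DBMIB and 16.42 to 16.66 under Hexenal, against 13.08 to 13.41 under the oxidants and 13.68 to 13.73 in control. CHLRE_10g456050v5 stood at 8.20 to 8.82 under the electrophiles, 5.93 to 6.67 under the oxidants and 7.72 to 7.86 in control. Next in order is CHLRE_10g456100v5, given above, and then CHLRE_10g456150v5, at 10.05 to 10.50 under the electrophiles and 6.88 to 8.88 under the oxidants, with control at 8.31 to 9.75. In each of the 4 loci all 6 electrophile arrays lay above all 6 oxidant arrays.

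Pooled differences in this run were 3.04, 2.13, 5.54 and 2.49 in annotation order, with adjusted p-values from 2.50e-12 to 4.08e-07 in limma's test. The measured loci on either side were not called. CHLRE_10g455950v5, a dim locus at 2.52 to 4.03 on the treated arrays, differed by 0.10 (adjusted p = 0.653 in limma's test) and CHLRE_10g456200v5, a transcript near the top of the signal range at 16.76 to 17.98 on all arrays, by 0.18 (adjusted p = 0.312). Further out, CHLRE_10g455850v5 differed by 0.39 (adjusted p = 0.00962) and CHLRE_10g456250v5 by -0.33 (adjusted p = 0.0192), both called but small beside the run.

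**Figure D5:**
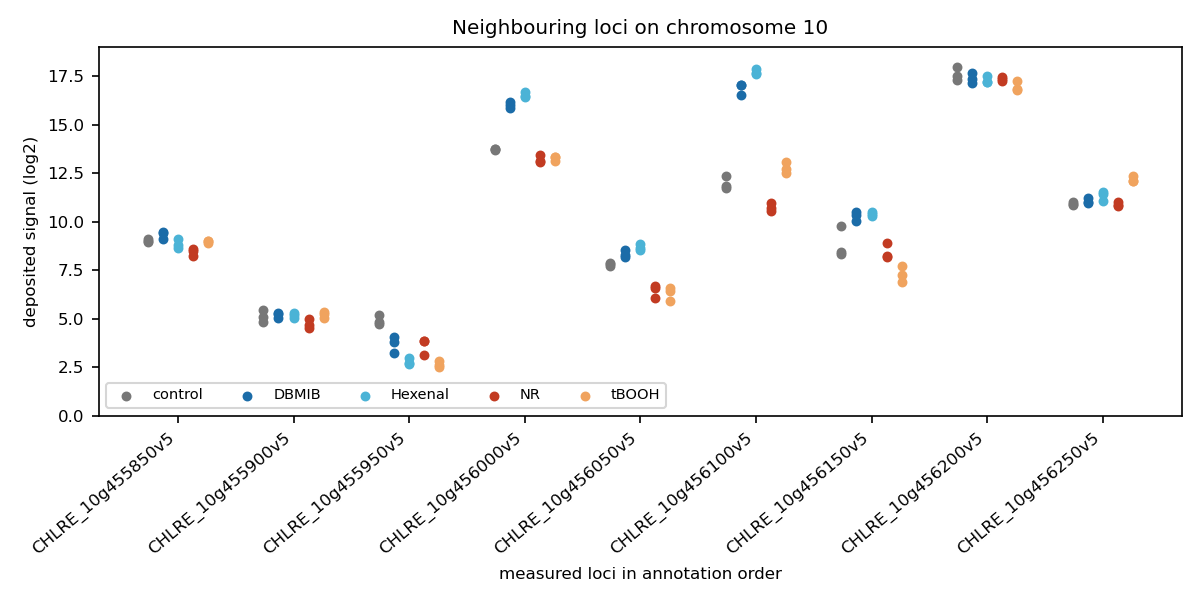
Points are single arrays (3 per group) with the deposited log2 signal on the vertical axis, and measured loci of chromosome 10 in annotation order on the horizontal axis. In the 4 loci from CHLRE_10g456000v5 to CHLRE_10g456150v5 the DBMIB and Hexenal arrays lie above the NR and tBOOH arrays, and in the loci beside them the pooled differences lie between -0.33 and 0.39.

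The next pairs were also chosen after their values were seen. One on chromosome 17 joined the second widest gap to its neighbour. CHLRE_17g733400v5, next to CHLRE_17g733350v5, stood at 12.73 to 13.08 under the electrophiles, 9.19 to 9.26 under NR and 7.69 to 8.43 under tBOOH, a 19.9-fold difference. Its probe is of the cross-hybridising class. In the lower direction CHLRE_02g093800v5, next to CHLRE_02g093750v5, was 4.02-fold lower under the electrophiles, at 5.40 to 6.27 against 7.38 to 8.24 under the oxidants.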

How the data were processed

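Custom Agilent arrays were read in 1 colour (Cy3) from total RNA, per the labels' protocols. Log2 values deposited by the authors for 15 arrays were tested: their sorted columns are equal within 0.01, so they were quantile-normalized; the sources used here do not name the software. Scanner tables of processed signal intensity per spot, deposited for the 12 treated arrays, gave the flags for background and served alternatives. Limma 3.58.1 (R 4.3.3; lmFit and eBayes) was fitted to 5 groups and 16283 probes without control features; calls needed an adjusted p under 0.05. A probe was well above background on an array if at least 0.5 of its spots were. On simulated data with 100 probes shifted by log2 1 and 100 by 2, among 16283, 31% and 93% were kept. Far fewer probes were shifted there than the 53.9% called in the pooled contrast. The adjustment depends on that share, so 31% and 93% do not measure the sensitivity in these data.

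Of 7899 transcript numbers below 200000, 86.8% matched an older locus tag of assembly Chlamydomonas_reinhardtii_v5.5, against 17.4% for shifted numbers; other probes stayed unnamed. The table gave no gene symbols, so none of the 22 planned gene lists could be tested. Named loci are, per direction, the 12 kept probes with the largest smallest-of-4 difference, a tag and no overlap of arrays, 1 per locus; others are said to be chosen after their values were seen, or are the largest pooled differences that were not kept. Members, lists and the limit of 200000 were chosen with earlier results of these data known. The labels do not say what a replicate number shares, and samples were not paired. Alternatives were other scalings, filters, tools' settings, minimum folds, a replicate block and leaving out each array. Normexp ran on the median signal, since the tables used here hold no mean signal. The number of arrays limits precision.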

Additional observations from a re-analysis of the deposited data

Results flagged for a closer look

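Among the 24 named loci, several differed between the chemicals of 1 class, by limma's test of that difference at an adjusted p under 0.05. On the log2 scale, DBMIB minus Hexenal was 3.39 in CHLRE_07g353600v5, 2.05 in CHLRE_02g077300v5, 1.26 in CHLRE_17g739000v5, 1.12 in CHLRE_12g501950v5, 1.08 in CHLRE_01g000400v5, 1.04 in CHLRE_03g152701v5, 1.005 in CHLRE_05g234661v5, 0.97 in CHLRE_16g667950v5 and 0.61 in CHLRE_02g093750v5. It was negative, so Hexenal was higher, in CHLRE_10g429050v5 (-1.42), CHLRE_17g700950v5 (-1.39) and CHLRE_10g456100v5 (-0.84).

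NR minus tBOOH was -4.22 in CHLRE_16g667950v5, -2.04 in CHLRE_10g456100v5, -0.94 in CHLRE_05g234661v5 and -0.76 in CHLRE_16g658850v5. It was 1.76 in CHLRE_12g501950v5, 1.06 in CHLRE_17g733350v5 and 0.99 in CHLRE_10g429050v5. In CHLRE_16g667950v5 no NR array, and in CHLRE_12g501950v5 and CHLRE_17g733350v5 no tBOOH array, was well above background, so these 3 values are fitted differences whose size was not measured.

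In 5 named loci both electrophiles and both oxidants were called against control in opposite directions. The pooled contrast compares the classes with each other and does not test their directions against control. Its fitted value was 7.13 in CHLRE_17g733350v5, 5.71 in CHLRE_12g501950v5, 4.88 in CHLRE_17g700950v5, -2.79 in CHLRE_03g170350v5 and -2.59 in CHLRE_11g467631v5. With the background floor the first 3 become nominal minima of 6.68, 5.201 and 4.53.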

How the results depend on the processing

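The counts were recomputed under the alternatives, with both directions together for called and kept probes, and 235 of 238 recounts stayed within 1.5 times. Counts against control and within a class were retaken over the same 1055 probes. That set was not chosen anew under each alternative, so part of this stability is built in. The exceptions were the probes kept at 2-fold, 467 with normexp on the median signals (offset 50; 463 of them kept at 2-fold on the deposited values too), the kept probes at a 4-fold minimum, 248, and the probes raised by both electrophiles and lowered by both oxidants, 36 with spike-in centring. The recounts of called and kept probes did not separate the directions, which spike-in centring moved further. With it the 629 higher and 426 lower probes at 2-fold became 404 and 834. The 1154 higher and 989 lower kept probes became 550 and 1374. All 24 named loci kept their direction and their pooled call in all 551 recomputed values. Part of this was fixed in advance, since the loci were chosen by this contrast. The probe filters, treated arrays only, the replicate block, trend and robust, and left-out control arrays do not alter the fitted difference. Spike-in centring shifts all loci alike, by too little to turn their direction. With normexp 20 of the 24 moved by over 1.5 times, all toward 0, the furthest being CHLRE_17g733350v5 from 7.13 to 3.13; others went, for example, in CHLRE_17g739000v5 from 4.61 to 0.91 on the log2 scale and in CHLRE_16g672200v5 from -2.57 to -0.67; the cause was not tested. The largest move was 0.35 with spike-in centring and 0.30 on leaving out an array. Leaving out 1 array at a time gave 8176 to 9002 pooled calls, 1831 to 2233 kept probes and 1010 to 1083 at 2-fold. Deviations of same-numbered arrays from their group means correlated at a median of 0.127 (-0.109 to 0.268, 20 of 30 over 0.1), and those of other numbers at -0.0637 (3 of 60 over 0.1). Same numbers thus deviated together more often, but not in every pair, which was the condition for pairing. Replicate block: with the replicate number as a block 9118 probes were called, 2281 kept and 1062 kept at 2-fold, of which 1054 are among the 1055. Without the 4 separate tests, 2702 probes (16.6%) had no overlap between 6 and 6 arrays. On the scanner signals centred on the 75th percentile, 42.9% of pooled calls were higher. Slide and scan date could not be used as blocks, since the tables used here give neither.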

Other observations

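Some wide separations of the classes were in transcripts that could not be tied to a locus tag, and those given here were chosen after their values were seen. Probe GT_Chlamydomonas_specific_011413 stood at 14.59, 14.70 and 14.23 under DBMIB and 17.01, 16.72 and 16.74 under Hexenal, against 5.92 to 6.60 under NR, 6.60 to 6.91 under tBOOH and 3.67 to 4.82 in control. All 4 chemicals raised it, and the electrophiles exceeded the oxidants by 559-fold (adjusted p = 8.65e-14 in limma's test). Probe GT_Chlamydomonas_specific_013026 was 213-fold higher under the electrophiles, at 14.34 to 15.11, than under the oxidants, at 6.71 to 7.28. Control arrays, at 8.17 to 10.00, lay between, so the classes moved in opposite directions. In the lower direction GT_Chlamydomonas_specific_013000 stood at 6.39 to 7.18 under the electrophiles, 8.01 to 8.52 in control and 9.38 to 10.80 under the oxidants.

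A pair of neighbours on chromosome 6 was in the higher set. CHLRE_06g277150v5 differed by 3.54 and CHLRE_06g277200v5 by 3.78 on the log2 scale. The first was raised over control by all 4 chemicals, by 7.37 under DBMIB, 4.81 under Hexenal, 1.73 under NR and 3.38 under tBOOH. The second was raised by 3.39 and 4.06 under the electrophiles and called under neither oxidant. Both were chosen after their values were seen.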
